A study of Mus musculus with 12 samples.

Results

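Dcpp3, 2300002M23Rik and BC048679 are 3 genes whose transcripts stood at the ends of the genotype comparison in the mouse oviduct. They were taken by symbol, as genes with very large differences between oviducts without and with estrogen receptor alpha (ESR1), and each was read by 1 probe set located in all 12 arrays, of 45101 probe sets in the table and 1997 that could be located there. The genotype differences chose the genes, so they are given below as a description and no test is attached to them. Values are log2 expression signals from Affymetrix arrays, on which 1 unit is a doubling of signal; a signal under 4 was taken as near background.

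Oviducts came from immature C57BL/6 mice in 4 groups of 3 arrays, each array holding RNA from whole oviducts pooled from 3 to 4 mice. PMSG-treated ESR1KO and PMSG-treated WT mice received 5 IU of pregnant mare serum gonadotropin (PMSG) at 23 days of age and were collected 48 h later, whereas ESR1KO and WT mice were collected untreated at 23 days. ESR1KO mice were ESR1-/-, with or without the Zp3Cre transgene, and had lost the gene in all cells because the Cre was expressed in the oocytes of their mothers. The WT mice were siblings that carried 1 floxed and 1 deleted copy (ESR1flox/-), with or without Zp3Cre, so that no group had 2 intact copies. Mice given PMSG were collected at an age 48 h later, so an effect of PMSG cannot be told apart from one of age.

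PMSG drives the growth of ovarian follicles, which secrete estradiol. Estradiol acts through ESR1, a nuclear receptor that binds DNA at estrogen response elements or through other transcription factors, and in the oviduct it regulates the secretions of the epithelium in which gametes and early embryos are held. Dcpp3, demilune cell and parotid protein 3, belongs with Dcpp1 and Dcpp2 to a small cluster of mouse genes for secreted proteins first known from salivary glands, and Dcpp from the oviductal epithelium has been described as a factor that promotes early embryo development. RefSeq lists the synonyms emprin and Stg for 2300002M23Rik, and no role is stated here for this gene or for BC048679.

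Dcpp3 and 2300002M23Rik both lie on chromosome 17 and BC048679 on chromosome 7. The promoter windows of the Dcpp cluster are printed because these copies are close to identical there; whether the array probes tell the transcripts apart could not be examined. Each window runs from 250 bases before to 50 bases after the RefSeq start site (GRCm38.p6), 5′ to 3′ on the strand of the gene. In the Dcpp3 window, chr17:23917208-23917507 on the plus strand, capitals mark TATAAG. In the windows of Dcpp1 (chr17:23880626-23880925, plus strand) and Dcpp2 (chr17:23898472-23898771, plus strand), capitals mark bases that were substituted or inserted relative to Dcpp3.
Dcpp3: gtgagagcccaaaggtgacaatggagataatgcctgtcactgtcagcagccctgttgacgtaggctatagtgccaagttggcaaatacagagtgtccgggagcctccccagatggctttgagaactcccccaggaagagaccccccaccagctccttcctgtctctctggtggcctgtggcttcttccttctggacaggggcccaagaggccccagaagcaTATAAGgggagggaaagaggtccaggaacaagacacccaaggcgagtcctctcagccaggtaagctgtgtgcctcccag
Dcpp1: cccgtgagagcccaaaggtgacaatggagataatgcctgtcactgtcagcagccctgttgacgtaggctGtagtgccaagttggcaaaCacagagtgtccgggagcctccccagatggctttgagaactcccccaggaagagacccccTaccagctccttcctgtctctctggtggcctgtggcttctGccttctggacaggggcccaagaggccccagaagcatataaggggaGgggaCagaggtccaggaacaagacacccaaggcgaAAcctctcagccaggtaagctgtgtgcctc
Dcpp2: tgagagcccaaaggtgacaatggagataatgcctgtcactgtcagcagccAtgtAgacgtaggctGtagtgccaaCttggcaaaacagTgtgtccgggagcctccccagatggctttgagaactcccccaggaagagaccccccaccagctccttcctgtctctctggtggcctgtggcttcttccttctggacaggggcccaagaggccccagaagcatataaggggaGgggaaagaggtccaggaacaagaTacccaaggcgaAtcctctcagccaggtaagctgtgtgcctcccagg
Over the aligned bases the Dcpp3 window was 97.6% identical to that of Dcpp1 (289 of 296 bases) and 97.7% identical to that of Dcpp2 (291 of 298 bases). The start of the Dcpp1 window lay 17.85 kb from that of Dcpp2, and that of Dcpp2 lay 18.74 kb from that of Dcpp3. TATAAG began 29 bases before the start site in Dcpp3, and the same letters stood in the Dcpp1 and Dcpp2 windows; 4.42% of 32851 RefSeq promoter windows of this length held TATAAG on the strand of the gene, a motif that was added after the sequences were seen.

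The window of BC048679, chr7:81498281-81498580 on the minus strand, is shown because it alone of the 5 windows searched held the estrogen response element half-site GGTCA, which stands in capitals. The window of 2300002M23Rik, chr17:35567235-35567534 on the plus strand, has no capitals because no motif searched was found in it.
BC048679: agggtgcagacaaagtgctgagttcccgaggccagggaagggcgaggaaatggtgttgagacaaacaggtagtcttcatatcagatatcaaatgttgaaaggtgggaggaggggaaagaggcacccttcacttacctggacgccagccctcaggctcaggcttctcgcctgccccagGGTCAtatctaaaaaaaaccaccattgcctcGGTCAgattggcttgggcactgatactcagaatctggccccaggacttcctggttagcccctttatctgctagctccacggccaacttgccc
2300002M23Rik: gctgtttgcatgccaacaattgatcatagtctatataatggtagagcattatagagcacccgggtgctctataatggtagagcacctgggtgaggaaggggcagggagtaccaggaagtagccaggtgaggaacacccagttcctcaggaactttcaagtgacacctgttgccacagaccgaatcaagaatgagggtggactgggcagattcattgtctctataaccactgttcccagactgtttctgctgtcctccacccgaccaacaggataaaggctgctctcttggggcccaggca
The half-sites of BC048679 began 73 and 42 bases before the start site, and 40.5% of all windows held GGTCA on either strand. The full palindromic estrogen response element, GGTCA followed after 3 bases by TGACC, contains the half-site on both strands and was in none of the 5 windows and in 0.07% of all windows. The letters of AP-1 (TGANTCA, 7.81% of windows), of the half-site of the glucocorticoid and progesterone receptors (TGTTCT, 19.0%) and of SP1 (GGGCGG, 35.7%), searched on both strands, and TATAAA on the strand of the gene (8.32%) were also not found in these 5 windows.

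Esr1, the targeted gene, was measured first in every array. Its probe set gave 10.11, 10.62 and 10.56 in PMSG-treated ESR1KO arrays, against 12.62, 12.82 and 12.21 in PMSG-treated WT arrays. It gave 10.42, 12.13 and 11.05 in ESR1KO arrays, against 12.94, 12.92 and 13.05 in WT arrays. Signal remained in ESR1KO oviducts but was lower than in every WT array of the same treatment, and ESR1KO replicate 2 came closest to WT. That array was the nearest of the 3 untreated ESR1KO arrays to the WT mean in 964 of the 1997 located probe sets (48.3%), against 490 for replicate 1 and 543 for replicate 3. The differences of 2300002M23Rik that use this array are therefore given with and without it. The search for like profiles was not repeated without it. With PMSG, ESR1KO replicate 1 was likewise nearest of its group to the PMSG-treated WT mean in 930 of 1997 located probe sets (46.6%). Replicates 2 and 3 of that group were nearest in 678 and 389, and the Esr1 signal of replicate 1 was the lowest of that group.

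The arrays were alike in overall level, with medians of 5.63 to 5.75 and 41.5% to 42.3% of signals under 4. Markers of the oviduct were checked in the untreated ESR1KO arrays, in which every probe set has its name. All 12 genes of the ciliated epithelium, 13 of 13 of the secretory epithelium, 8 of 8 of smooth muscle and 8 of 8 of stroma on the array had a mean signal of at least 4. Of the ovarian markers 5 of 11 did. The oocyte genes Gdf9, Zp2 and Zp3, the granulosa genes Fshr and Amh, and Cyp11a1 were under 4. The 5 that reached 4 came from the rest of that list (Inha, Inhba, Inhbb, Cyp19a1, Star and Foxl2), which holds other granulosa genes. The amount of ovarian RNA in the samples was not tested. Of the other lists, 1 of 4 adipocyte genes and 5 of 7 leukocyte genes reached 4. Oviducts were measured whole, and fewer cells of a type and less RNA per cell cannot be told apart.

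With PMSG, Dcpp3 was near background in every ESR1KO array and bright in every WT array. The signals were 1.97, 1.77 and 1.92 in PMSG-treated ESR1KO arrays, against 12.05, 11.14 and 11.24 in PMSG-treated WT arrays. From 3.51% to 6.4% of all probe sets were dimmer on the same array in PMSG-treated ESR1KO, against 92.8% to 96.2% in PMSG-treated WT. The mean was 1.89 ± 0.10 in PMSG-treated ESR1KO, against 11.48 ± 0.50 in PMSG-treated WT (SD, n = 3 each), a log2 difference of -9.59 or 771-fold lower in PMSG-treated ESR1KO. This was the lowest difference of all 45101 probe sets, the measure by which the gene had been chosen. With signals under 4 set to 4, the difference was 178-fold, since a value near background is poorly determined on a log scale.

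Without PMSG, Dcpp3 was again near background in ESR1KO, while WT arrays spread widely. It gave 3.91, 2.01 and 1.74 in ESR1KO arrays, against 7.51, 10.85 and 8.13 in WT arrays. The groups did not overlap, and the means of 2.55 ± 1.18 in ESR1KO and 8.83 ± 1.78 in WT (SD, n = 3 each) differed by -6.28 on the log2 scale, 77.6-fold lower in ESR1KO or 28.5-fold with the floor of 4. WT replicate 2 was 10.1-fold above the lowest WT array and close to the PMSG-treated WT arrays. Only 18 of 45101 probe sets (0.0399%) had a larger SD among the WT arrays than Dcpp3.

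**Figure D1:**
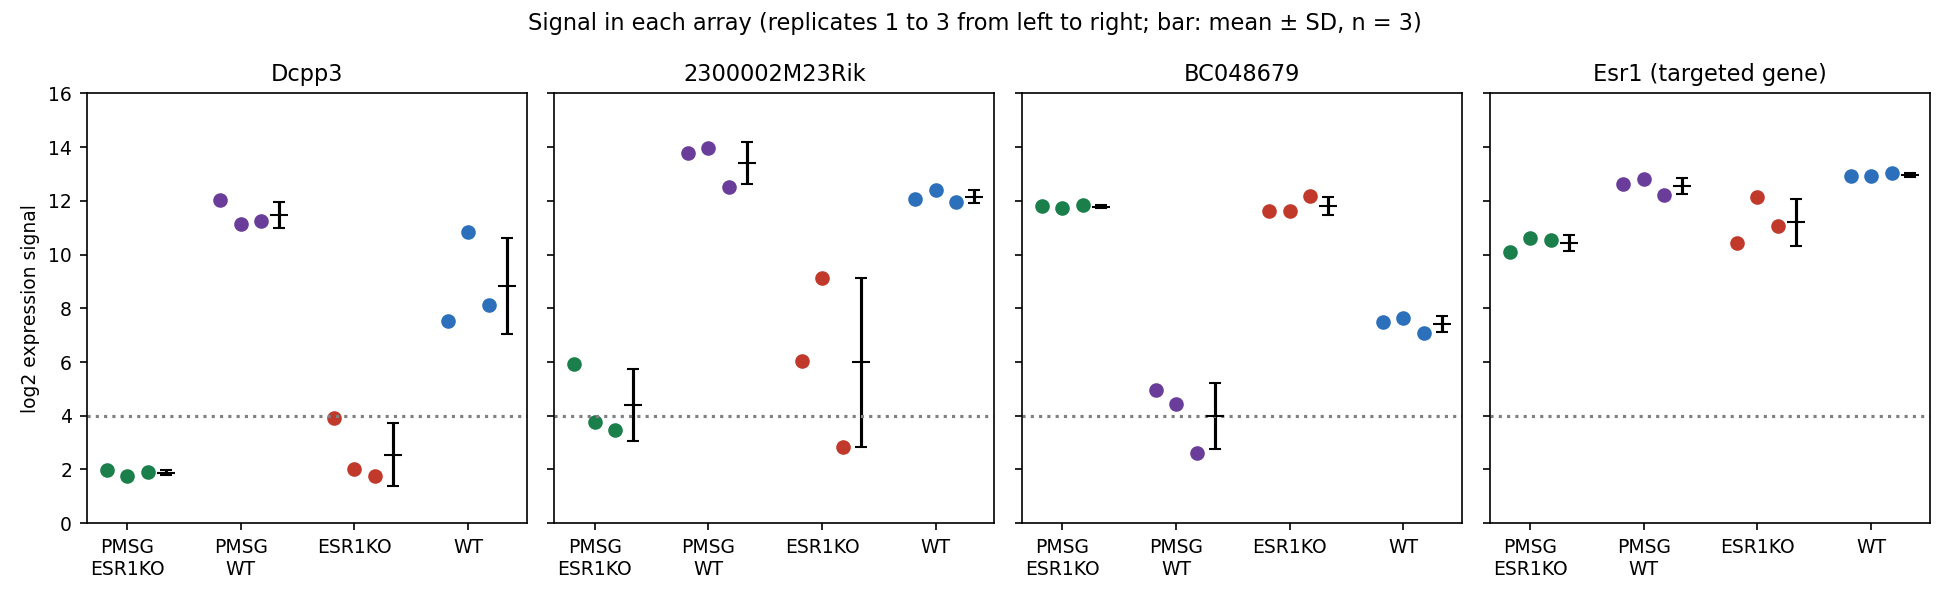
Log2 expression signal of Dcpp3, 2300002M23Rik, BC048679 and the targeted gene Esr1 in each of the 12 arrays; points are replicates 1 to 3 from left to right, black bars show mean ± SD (n = 3), and a dotted line marks 4, under which signals were near background. Dcpp3 and 2300002M23Rik are lower and BC048679 is higher in every ESR1KO array than in every WT array of the same treatment, and 2300002M23Rik spreads from 2.83 to 9.12 among untreated ESR1KO arrays.

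A second probe set, annotated to Dcpp1, Dcpp2 and Dcpp3 together, was also lower in every ESR1KO array than in every WT array but kept a signal in ESR1KO. It gave 6.57, 9.14 and 6.82 in PMSG-treated ESR1KO arrays, against 14.90, 13.88 and 13.98 in PMSG-treated WT arrays. It gave 7.20, 7.05 and 5.45 in ESR1KO arrays, against 11.28, 13.63 and 11.52 in WT arrays. No ESR1KO array was near background, and ESR1KO was lower by 107-fold among PMSG-treated and by 47.7-fold among untreated oviducts. WT replicate 2 was again the highest of the WT arrays.

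A probe set for Dcpp1 alone, named in the untreated ESR1KO arrays but not located in the other groups, gave 2.77, 2.73 and 2.53, all near background. The names of the Dcpp3 set and the shared set mark them as open to cross-hybridisation between similar transcripts. Both Dcpp sets also carry in the array annotation a sequence identifier that RefSeq lists as a synonym of Dcpp1. The share of each Dcpp gene in these signals is therefore uncertain. The name of the 2300002M23Rik set, described next, carries the same mark as that of the Dcpp3 set, and the part of other transcripts in its signal was not tested.

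**Figure D2:**
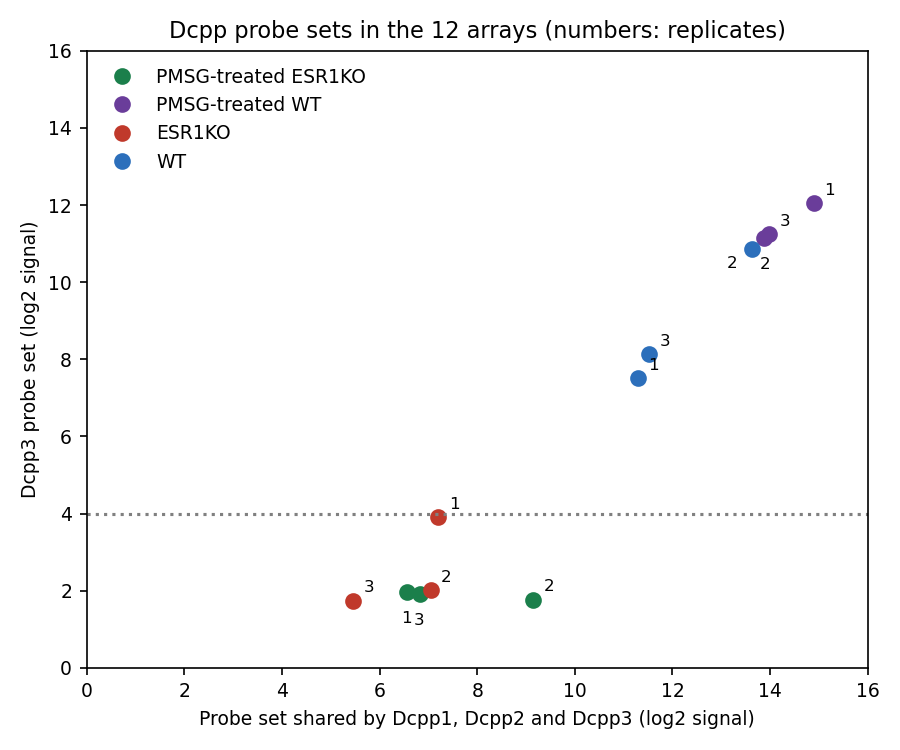
Log2 signal of the Dcpp3 probe set (vertical) against that of the probe set shared by Dcpp1, Dcpp2 and Dcpp3 (horizontal) in the 12 arrays, with replicate numbers beside the points and a dotted line at the limit of 4. WT and PMSG-treated WT arrays rise together on both sets, whereas the Dcpp3 set stays under 4 in all 6 ESR1KO arrays while the shared set runs from 5.45 to 9.14.

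2300002M23Rik, next to Dcpp3 in the size of its difference with PMSG, was bright in every WT array. It gave 5.93, 3.78 and 3.45 in PMSG-treated ESR1KO arrays, against 13.79, 13.97 and 12.52 in PMSG-treated WT arrays. The mean was 4.39 ± 1.34 in PMSG-treated ESR1KO, against 13.42 ± 0.79 in PMSG-treated WT (SD, n = 3 each), a log2 difference of -9.04 or 525-fold lower in PMSG-treated ESR1KO. With the floor of 4 it was 440-fold. The next lowest differences of the table were -7.03, -6.93 and -6.74, the last of these the shared Dcpp probe set. In PMSG-treated WT arrays 97.4% to 99.3% of all probe sets were dimmer on the same array.

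In untreated oviducts the ESR1KO arrays were far apart and the WT arrays close together. 2300002M23Rik gave 6.04, 9.12 and 2.83 in ESR1KO arrays, against 12.09, 12.42 and 11.97 in WT arrays. The groups did not overlap, with means of 6.00 ± 3.15 in ESR1KO and 12.16 ± 0.23 in WT (SD, n = 3 each), a log2 difference of -6.16 or 71.6-fold lower in ESR1KO. The ESR1KO arrays themselves spanned 78.3-fold. Without 1 array at a time the log2 difference lay between -7.72 and -4.58, the first of these without ESR1KO replicate 2.

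The spread of 2300002M23Rik among untreated ESR1KO arrays was larger than that of all but 2 of the 45101 probe sets. These 2, named after their values were seen, were a control for 18S ribosomal RNA (12.71, 8.06 and 5.32 in replicates 1 to 3) and a probe set of Ccn1 (9.51, 3.30 and 8.55). Neither had its highest signal in replicate 2, where 2300002M23Rik was highest. Replicate 2 was also the ESR1KO array with the most Esr1 signal, and the part of either in the spread was not tested.

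BC048679 ran the other way and was bright in every ESR1KO array. It gave 11.82, 11.72 and 11.83 in PMSG-treated ESR1KO arrays, against 4.95, 4.42 and 2.61 in PMSG-treated WT arrays. The mean was 11.79 ± 0.06 in PMSG-treated ESR1KO, against 3.99 ± 1.22 in PMSG-treated WT (SD, n = 3 each), a log2 difference of 7.80, or 222-fold higher in PMSG-treated ESR1KO and 161-fold with the floor of 4. This was the highest difference of all 45101 probe sets, and the next were 6.62 and 5.86. Its 3 PMSG-treated ESR1KO arrays lay within 1.08-fold of each other, and 84.3% of probe sets had a larger SD there.

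BC048679 was bright without PMSG too, and the WT level was intermediate. It gave 11.63, 11.63 and 12.18 in ESR1KO arrays, against 7.51, 7.65 and 7.09 in WT arrays. With means of 11.81 ± 0.32 in ESR1KO and 7.42 ± 0.29 in WT (SD, n = 3 each), the log2 difference was 4.39, 21.0-fold higher in ESR1KO. ESR1KO replicate 2 did not stand apart for this gene. For scale, 4.48% of 45101 probe sets passed the call in the comparison of PMSG-treated ESR1KO with PMSG-treated WT (adjusted p under 0.05 with a difference of 2-fold or more, limma), 2.76% higher and 1.72% lower. Of the 1997 located probe sets, 18.1% passed it when ESR1KO was compared with WT, 9.11% being higher and 9.01% lower; nothing is read from these shares, since the 3 genes were chosen by these contrasts.

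For Dcpp3 and 2300002M23Rik the mean level was thus highest in PMSG-treated WT, next in WT and lowest in the ESR1KO groups. PMSG-treated ESR1KO and ESR1KO overlapped for both genes and were given no order, since all 6 of these arrays were near background for Dcpp3 and the means of 2300002M23Rik differed by -0.05 without ESR1KO replicate 2. For these 2 genes PMSG-treated WT and WT did not overlap, but the difference did not pass the test given next. The share of all probe sets without overlap between groups was not counted, so no response is read from a lack of overlap, here or below. For BC048679 the ESR1KO and PMSG-treated ESR1KO arrays overlapped at the top, WT lay between, and PMSG-treated WT was lowest with no overlap.

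The response to PMSG within a genotype was not used to choose the genes and was tested by limma, with Benjamini-Hochberg adjustment over all rows of the table. Its arrays are shared with the genotype contrasts, so its p-values are not wholly independent of the choice. The 3 genes were also located from the study's list of changed genes. The shares of probe sets called are thus given for scale, and no enrichment is read from them. In WT oviducts 1 of the 3 genes was called, against 0.251% of all 45101 probe sets (113, of which 80 were higher and 33 lower with PMSG). In ESR1KO oviducts 0 of 3 were called, against 0.1% of 1997 located probe sets (2). An unadjusted p under 0.05 was reached there by 0 of 3, in limma and in the unmoderated linear model alike. Of the 1997 located probe sets, 347 reached it in limma and 351 in the unmoderated model, so nothing is read from this count of 0. In WT oviducts 2 of 3 reached it in both models, beside 4174 of 45101 probe sets in limma and 3618 in the unmoderated model.

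BC048679 was the gene called, against 0.0732% of all probe sets called lower. It fell by 3.42 on the log2 scale in PMSG-treated WT compared with WT (SE 0.51, 95% interval -4.57 to -2.28, adjusted p = 0.0413, limma), 10.7-fold lower with no overlap of the groups, or 7.78-fold with the floor of 4. Of the 45101 probe sets, 5 had a lower difference. The call was close to the threshold and was lost in 7 of 9 fits that left out 1 array, namely without any 1 of the WT arrays (replicates 1 to 3), any 1 of the PMSG-treated ESR1KO arrays (replicates 1 to 3) or PMSG-treated WT replicate 2. The adjusted p over these 9 fits was 0.00112 to 0.177 and the difference -3.90 to -2.73. In ESR1KO oviducts the difference with PMSG was -0.02 (SE 0.47, 95% interval -1.06 to 1.02).

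Dcpp3 had a 6.25-fold higher mean in PMSG-treated WT than in WT oviducts, a log2 difference of 2.64 (SE 0.73, 95% interval 0.99 to 4.30), but did not pass the test (adjusted p = 0.240, limma). The groups did not overlap, by a gap of 0.29 between the lowest PMSG-treated WT array and WT replicate 2. Without WT replicate 2 the difference was 3.65 and the adjusted p 0.0109. In ESR1KO oviducts, where all arrays were near background, the difference was -0.67 (SE 0.78, 95% interval -2.38 to 1.05). The shared Dcpp probe set gave 4.31-fold in PMSG-treated WT against WT (adjusted p = 0.417, limma) and 1.92-fold in PMSG-treated ESR1KO against ESR1KO, with overlap.

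2300002M23Rik had a 2.40-fold higher mean in PMSG-treated WT than in WT oviducts, a log2 difference of 1.27 (SE 0.62, 95% interval -0.14 to 2.67, adjusted p = 0.616, limma). The lowest PMSG-treated WT array was 0.10 above the highest WT array. In ESR1KO oviducts the difference was -1.61 (SE 1.24, 95% interval -4.33 to 1.11) and the groups overlapped. Without ESR1KO replicate 2 it was -0.05 and without ESR1KO replicate 3 it was -3.19, so that the size of this value rests on single arrays.

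**Figure D3:**
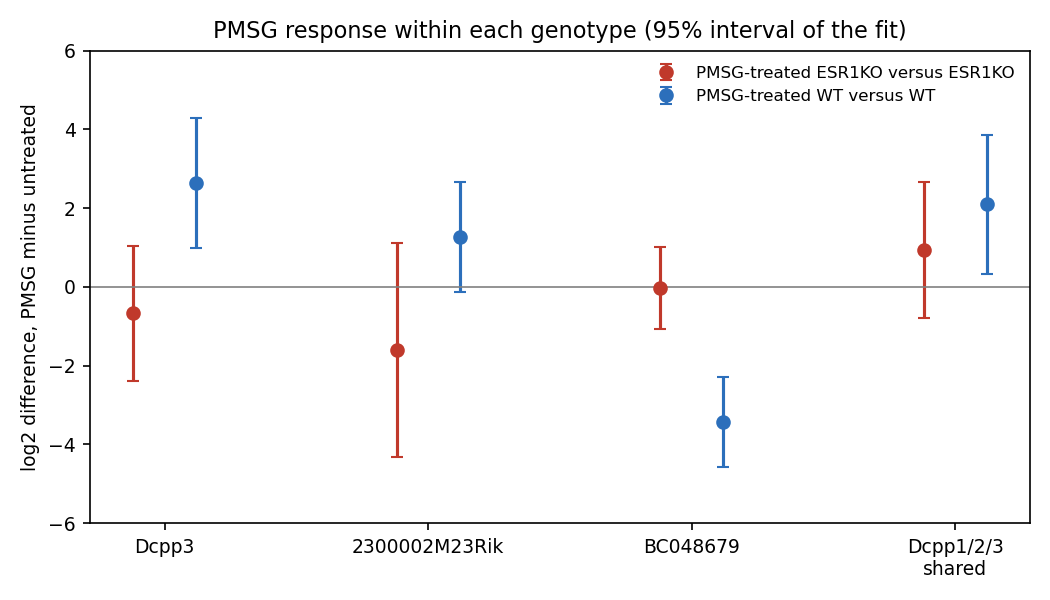
Log2 difference of PMSG-treated minus untreated oviducts for the 3 genes and the shared Dcpp probe set, in ESR1KO (left of each pair, red) and in WT (right, blue); bars are 95% intervals of the fit with 3 arrays per group. The 4 intervals in ESR1KO all include 0, and in WT the interval of BC048679 lies between -4.57 and -2.28 and that of Dcpp3 between 0.99 and 4.30.

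The PMSG response in ESR1KO minus that in WT was -3.31 for Dcpp3, -2.87 for 2300002M23Rik and 3.40 for BC048679. These values are the genotype difference with PMSG minus that without it, the contrasts that chose the genes, and are given with no test. For 2300002M23Rik the value was -1.31 without ESR1KO replicate 2 and -4.46 without ESR1KO replicate 3, so that its size rests on single ESR1KO arrays.

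The located probe sets with profiles most like those of the 3 genes were found by the mean absolute difference over the 12 arrays, after each profile was centred on its own mean. There were 1846 to compare with each gene, all from the genes the study had listed as changed, and their median distance was 4.12 from Dcpp3, 3.96 from 2300002M23Rik and 2.89 from BC048679. Dcpp3 was closest to 2300002M23Rik (1.38), Cyp26a1 (1.49), Ramp3 (1.61), Hpgds (1.67) and Akr1c14 (1.77). The shared Dcpp probe set, which carries several symbols and was not ranked, was at 1.03 from Dcpp3.

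2300002M23Rik was closest to Cyp26a1 (0.91), an enzyme that breaks down retinoic acid, and to Hpgds (1.13), a prostaglandin D synthase. Dcpp3 (1.38), Akr1c14 (1.54), a hydroxysteroid dehydrogenase, and the membrane protein gene Mlc1 (1.55) came next. Cyp26a1 gave 3.52, 7.81 and 3.37 in ESR1KO arrays, against 10.15, 10.30 and 10.16 in WT arrays. Hpgds gave 4.38, 8.38 and 4.21 in ESR1KO arrays, against 10.57, 10.92 and 10.51 in WT arrays. Akr1c14 (11.11) and Mlc1 (6.25) were also highest of the untreated ESR1KO arrays in replicate 2, as 2300002M23Rik was, and in each of these genes that array stayed below all WT arrays. The genes were picked for likeness over these same arrays. Dcpp3 was near background in all 3 untreated ESR1KO arrays.

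BC048679 was closest to Cdh16 (0.80), a cadherin known from kidney, Apod (0.86), apolipoprotein D, and Chodl (0.94), a membrane protein with a C-type lectin domain. Aldh1a3 (1.00), an enzyme that makes retinoic acid, and Pla2g10 (1.11), a secreted phospholipase A2, followed. Cdh16 gave 11.09, 11.68 and 11.63 in PMSG-treated ESR1KO arrays, against 6.79, 6.54 and 4.12 in PMSG-treated WT arrays. Apod gave 10.25, 11.58 and 11.15 in PMSG-treated ESR1KO arrays, against 5.22, 5.10 and 2.82 in PMSG-treated WT arrays. BC048679, Cdh16 and Apod had their lowest signal of the PMSG-treated WT group in replicate 3, over arrays by which the likeness had itself been measured. Ranked by the 4 group means in place of the 12 arrays, 4, 3 and 5 of the 5 nearest genes remained for Dcpp3, 2300002M23Rik and BC048679.

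**Figure D4:**
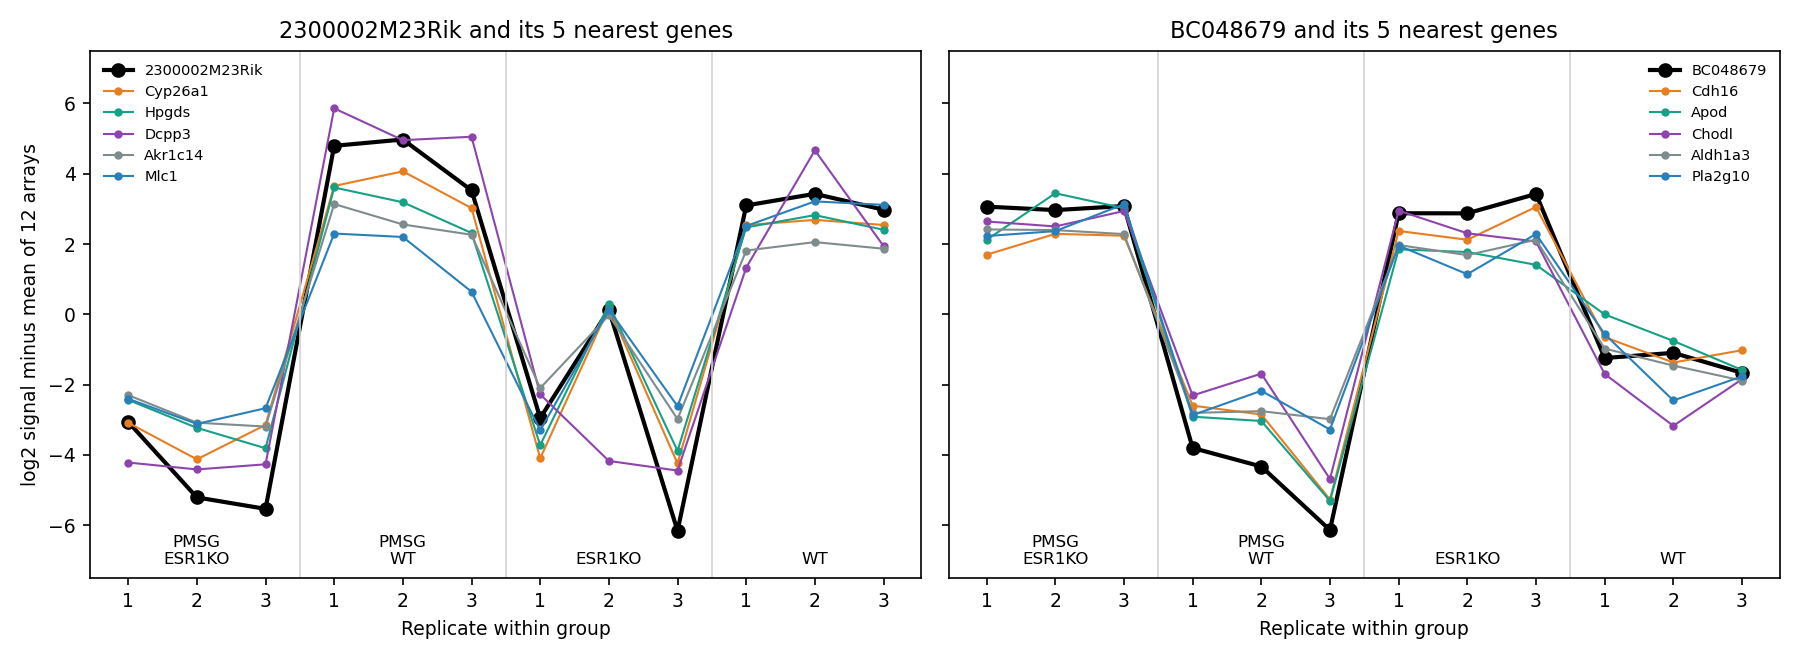
Log2 signal minus the mean of the 12 arrays for 2300002M23Rik (left, black) and BC048679 (right, black) and the 5 located genes nearest to each, by group and replicate. On the left 2300002M23Rik and its neighbours other than Dcpp3 share a peak in ESR1KO replicate 2; on the right all 6 genes are highest in the ESR1KO arrays. The genes were chosen for likeness over these 12 arrays.

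Of the annotated genes beside the 3 on the chromosome, up to 5 on each side, Ap3b2 was the one located in all arrays, by 1 of its 2 probe sets. The other set, read in the untreated ESR1KO arrays alone, was near background there (2.98, 2.67 and 2.68). Ap3b2, a subunit of an adaptor complex for vesicle transport, lies next to BC048679. The located set gave 10.27, 10.77 and 10.84 in PMSG-treated ESR1KO arrays, against 8.01, 8.42 and 7.43 in PMSG-treated WT arrays. It gave 10.54, 10.49 and 11.44 in ESR1KO arrays, against 8.75, 8.73 and 9.42 in WT arrays. Like BC048679 it was higher in each ESR1KO array than in any WT array of the same treatment, by 6.38-fold with PMSG and 3.62-fold without it, and PMSG-treated WT was 2.02-fold below WT (adjusted p = 0.267, limma). Only genes in the study's list of changed genes could be located, so a located neighbour was bound to be one listed as changed. The other neighbours could not be compared between groups, and nothing is read from the likeness of Ap3b2 to BC048679.

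Other secreted and hormone-related genes were counted from gene lists, among probe sets that the study had listed as changed in these arrays, so that their direction is not independent evidence. Tissue kallikreins are serine proteases that salivary glands also secrete, and 4 of 4 located members rose in PMSG-treated WT compared with WT by limma, whereas the unmoderated model called 1 of 4. Over all probe sets 0.177% were called higher by limma, a share that does not serve as a measure for genes located because they had been listed as changed. Klk1b1 had a mean of 8.01 ± 0.43 in PMSG-treated WT, against 2.01 ± 0.04 in WT (SD, n = 3 each), and was 64.2-fold higher (adjusted p = 2.29e-05, limma), a log2 difference of 6.00 that was 4.01 with the floor of 4, since all WT arrays were near background. Klk1b24 (8.28-fold, adjusted p = 0.0328), Klk1 (7.37-fold, adjusted p = 0.00714) and Klk1b21 (6.80-fold, adjusted p = 0.00467) rose as well. The median log2 difference of the 4 was 2.97, beside 0.01 over all rows. In PMSG-treated ESR1KO against ESR1KO, 0 of 4 were called and 0 of 4 had an unadjusted p under 0.05 in limma and in the unmoderated model. Of 1997 located probe sets 0.1% were called there. An unadjusted p under 0.05 was reached by 347 of them in limma and 351 in the unmoderated model, so nothing is read from these counts of 0.

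Among secretory epithelial genes, Lcn2, the iron-carrier-binding lipocalin, rose 3.72-fold in PMSG-treated WT compared with WT (adjusted p = 0.0113, limma). The mucins Muc1 and Muc4 had differences of -1.19 and -1.46 and were not called, which made 1 of 3 located genes, with a median difference of -1.19. In the list of salivary and other exocrine secretions, 1 of 2 located genes was called higher, Klk1, and the other was Dcpp3. Of the 11 genes of that list on the array, 2 reached a signal of 4 in untreated ESR1KO oviducts.

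Estrogen-response genes gave 0 calls of 7 located in PMSG-treated WT compared with WT by limma, 5 of them with an unadjusted p under 0.05 and 3 in the unmoderated model, which also called 0; the median log2 difference of the 7 was -0.33. Greb1, an estrogen-induced coactivator of ESR1, was 3.29-fold higher (adjusted p = 0.0876), Muc1 2.28-fold lower (adjusted p = 0.160), Igfbp4 1.98-fold lower (adjusted p = 0.0817) and Ramp3, among the genes nearest to Dcpp3, 1.42-fold higher (adjusted p = 0.942). Steroid receptors gave 0 of 4, with 3 at an unadjusted p under 0.05 in limma and 1 in the unmoderated model. Esr1, the targeted gene, and Pgr were counted in both the estrogen-response and the steroid receptor list. Over all 45101 probe sets 0.251% were called in WT by limma. An unadjusted p under 0.05 was reached by 4174 of them in limma and by 3618 in the unmoderated model. Of the cell-type lists with located genes, 0 of 1 smooth muscle, 0 of 3 stromal and 0 of 2 leukocyte genes were called in WT, with 0 at an unadjusted p under 0.05 in both models. In PMSG-treated ESR1KO compared with ESR1KO, these 5 lists had 0 calls. There limma gave an unadjusted p under 0.05 for 2 of 7 estrogen-response, 2 of 4 steroid receptor, 1 of 1 smooth muscle, 2 of 3 stromal and 0 of 2 leukocyte genes. The unmoderated model gave 1, 1, 0, 2 and 0 in the same order. Of the 1997 located probe sets 0.1% were called in this comparison by limma, and 347 (limma) or 351 (unmoderated model) had an unadjusted p under 0.05. All list genes were located because the study had listed them as changed, so nothing is read from these counts.

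The leukocyte genes located were S100a8 and S100a9, which neutrophils carry in large amounts. S100a9 had a mean of 6.92 ± 1.98 in PMSG-treated ESR1KO, against 2.76 ± 0.41 in PMSG-treated WT, and of 5.73 ± 0.58 in ESR1KO, against 3.13 ± 0.48 in WT (SD, n = 3 each). Of the 3 located stromal genes, Pdgfra was 2.81-fold higher and called, and Lum, a proteoglycan gene, 4.30-fold lower and called in PMSG-treated ESR1KO relative to WT with PMSG, beside 2.76% and 1.72% of all probe sets called higher and lower. Col1a2, the remaining stromal gene, was 2.19-fold lower and the smooth muscle gene Actg2 3.13-fold lower there, and neither was called. Without PMSG, Col1a2 (5.05-fold), Lum (5.43-fold) and Actg2 (4.79-fold) were called lower in ESR1KO than in WT. Pdgfra (2.18-fold) was called higher, beside 9.11% and 9.01% of located probe sets called higher and lower. All were located from the study's list of changed genes, and the part of cell makeup in the 3 genes' differences was not tested.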

How the data were processed

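Biotin-labelled RNA of 12 pools was hybridised to Affymetrix Mouse Genome arrays. The authors deposited log2 expression signals made in Partek 6.6, where GC-RMA corrected the background before quantile normalization and a median polish over the probes. A signal near background is poorly determined on a log scale, so the size of a fold against a dim group is uncertain. No detection calls were used, and the number of arrays limits the precision. Probe set names fit the columns of untreated ESR1KO, whereas the remaining 9 columns are sorted alike in a different order (correlation between the blocks -0.146 to -0.123, within them 0.959 or more). Each gene was therefore located through its row in the held part of the study's list of changed genes (1997 of 2428 rows): 2 printed folds as a key to the 9 columns, and the implied level (within 0.0002) and 6 p-values (within 0.5%) as a key to the untreated ESR1KO columns. The rows of the 3 genes were found within 4.54e-05 on the log2 scale, with the second row at 1.26 or more, and the probe sets so found carried their symbols. No other value of that list was used.

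The limma package (3.58.1, under R 4.3.3), with eBayes and a variance trend, was fitted to all 45101 rows of 9 arrays for PMSG-treated WT versus WT, and to 1997 located rows of 12 arrays for PMSG-treated ESR1KO versus ESR1KO, with the prior variance of the first fit (prior degrees of freedom 2.87) and an adjusted p that is an upper bound. Calls needed a 2-fold difference and an adjusted p under 0.05, except that the interaction had no fold minimum. Row matching and fit were tested on simulated data. Different mice went into the replicates, by the study's methods.

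Genes, lists and tests were chosen with earlier results of these data known. Genes named are the 3 with their probe sets, Esr1, the 5 nearest profiles, up to 4 located genes per list and located chromosomal neighbours. Of the probe sets, 34958 had 1 symbol, 932 several and 9211 none. Sequences are from RefSeq (GRCm38.p6), matched by symbol for 3 of 3 genes. Alternatives were no variance trend, an unmoderated model, a mean signal of at least 4, repeated quantile normalization, median centring, a replicate block, only the 6 arrays compared, no fold minimum, each array left out, and, chosen after seeing the data, a floor of 4.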

Additional observations from a re-analysis of the deposited data

How the results depend on the processing

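Over all alternatives for the 3 genes, 206 of 225 values were counted as the same, by direction and, where there was an adjusted p, by side of the threshold. This total is no measure of robustness. It includes the genotype contrasts that chose the genes, which have no test, and settings that cannot change a difference. The only call made, that of BC048679 in WT, was counted as the same in 6 of 18 alternatives, among them the floor, which had no test. The fall of BC048679 in PMSG-treated WT compared with WT kept its size but not its call with no variance trend (-3.42, adjusted p = 0.0640), in the unmoderated model (-3.42, 0.202), with quantile normalization repeated (-3.40, 0.0639), with the replicate block (-3.42, 0.0709) and with only the 6 arrays compared (-3.42, 0.196); limma gave adjusted p-values of 0.00112 to 0.177 and differences of -3.90 to -2.73 when 1 array was left out. Leaving out 1 array gave 1.99 to 3.65 for Dcpp3 in PMSG-treated WT compared with WT, which was called without WT replicate 2. In PMSG-treated ESR1KO compared with ESR1KO it gave -1.07 to 0.0097 for Dcpp3 and -0.11 to 0.16 for BC048679, whose value was also 0.0 with quantile normalization repeated. The response in ESR1KO minus that in WT was 2.71 to 3.88 for BC048679, the first of these without PMSG-treated WT replicate 3. With signals under 4 set to 4, an alternative chosen after seeing the data, the difference of Dcpp3 between PMSG-treated ESR1KO and PMSG-treated WT was -7.48. Of the 5 genes nearest to 2300002M23Rik, 3 remained by group means. The cause of these changes was not tested, other than the floor, which by construction shortens differences from dim groups.

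The number of probe sets called in PMSG-treated WT compared with WT was 113 of 45101. It was 19 in the unmoderated model, 179 of 26222 with a mean signal of at least 4, 46 with the replicate block and 36 with only the 6 arrays compared. With 1 array left out it was 41 to 346 (346 without PMSG-treated WT replicate 3). In PMSG-treated ESR1KO compared with ESR1KO it was 2 of 1997 located probe sets. There it was 0 with no variance trend, in the unmoderated model, with a mean signal of at least 4 or with only the 6 arrays compared. With 1 array left out it was 0 to 6. Of these 1997 probe sets 347 had an unadjusted p under 0.05 by limma. For the interaction the number called was 13 of 1997, and 1 in the unmoderated model and 1 to 46 with 1 array left out. Counts over located probe sets rest on preselected rows and an upper bound of the adjusted p. They cannot be set against the 113 in WT. The labels do not say that replicate numbers pair the arrays, and deviations of same-numbered arrays correlated at 0.226, -0.124 and 0.0771 between PMSG-treated WT and WT and at 0.0925, -0.0178 and 0.199 between PMSG-treated ESR1KO and ESR1KO, so no pairing was assumed; between PMSG-treated ESR1KO and WT all 3 were over 0.1 (0.155, 0.312 and 0.123). The block changed no call of the 3 genes other than that of BC048679. Dcpp3 in ESR1KO and BC048679 in PMSG-treated WT lay near background, where signals limit what can be measured.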
